A study of Mus musculus with 16 samples.

Results

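Total RNA of whole gastrocnemius muscle was compared between 3 Het mice (Eif6+/-, left with 1 intact Eif6 allele) and 3 WT littermates (Eif6+/+), with 1 array per mouse. The probes compared were all those that are no control spots and that the scanner software called well above background on all 3 arrays of at least 1 genotype, which were 17641 of the 55681 probe names on the array. All mice were untreated C57BL6 males, 8 to 16 weeks old, and the sources name no promoter or Cre that would limit the lost Eif6 copy to muscle. The series holds 16 arrays of gastrocnemius RNA, and the polysome arrays of the same 6 mice (RNA that carried several ribosomes) are used below only as values set beside those of total RNA.

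eIF6 is a ribosome factor that attaches to the 60S particle, the large subunit. It takes part in the maturation of that subunit and keeps it from joining the small subunit until it is released. Gastrocnemius is a calf muscle made mostly of fast fibres, but a piece of whole muscle also holds fibroblasts, endothelium, nerve and resident immune cells, whose RNA is part of total RNA.

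The Het arrays were dimmer than the WT arrays. Array brightness, the 75th percentile of the background-subtracted signal over all probes, was 150, 57.1 and 42.3 scanner units on WT arrays 1 to 3 and 33.0, 13.5 and 19.1 on Het arrays 1 to 3, a mean difference of -1.81 on the log2 scale (2-sided exact permutation p = 0.1, the smallest that 3 against 3 can give). Each Het array was dimmer than each WT array, both on slide 1, which held WT 3, Het 2 and Het 3, and on slide 2, which held WT 1, WT 2 and Het 1. The share of probes well above background was 33.0% to 44.5% on WT arrays and 23.0% to 33.8% on Het arrays. Arrays of 1 genotype correlated across tested probes with r between 0.952 and 0.979, and arrays of different genotypes with r between 0.929 and 0.981, over probes that are not independent replicates. WT 1 stood apart in brightness. As a sign of RNA integrity, 477 pairs of probes on 1 transcript were compared, and the median 5′ to 3′ difference in log2 signal ran from -0.65 to -0.40 in WT and from -0.79 to -0.36 in Het. In these mice, labelled male, the Y-linked Ddx3y and Eif2s3y were well above background on all 6 arrays and Xist on none. Because brightness followed genotype on all 6 arrays, each whole-muscle difference below was also fitted with log2 brightness as a second term. On the polysome arrays the order was the other way, with Het brighter by a mean of 0.83 on the log2 scale (2-sided exact permutation p = 0.2). Polysome values were fitted on genotype alone, so what part brightness had in them was not tested.

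**Figure D1:**
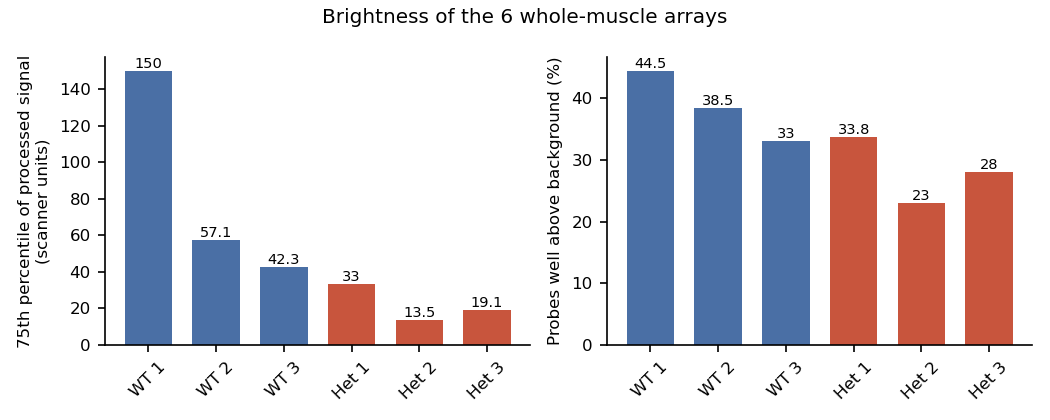
Brightness of each whole-muscle array in scanner units, taken at the 75th percentile of signal (left) and percentage of probes well above background (right), with 1 bar per mouse, WT in blue and Het in red. The 3 Het arrays lie between 13.5 and 33.0 scanner units and the 3 WT arrays between 42.3 and 150.

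The deleted gene was examined first. The brightest Eif6 probe (A_52_P85864, chr2:155645718-155645777, mm9, an Eif6 transcript by the array design) gave log2 signals of 9.68, 9.14 and 8.96 in WT and 8.36, 8.38 and 8.18 in Het. All Het mice were below all WT mice. The difference was -0.95 (SE 0.23, 95% interval -1.51 to -0.40), a 1.94-fold lower signal in Het, with an exact permutation p of 0.1 and a limma p of 0.0048 that became 0.473 after Benjamini-Hochberg adjustment over all tested probes. A second Eif6 probe differed by -1.09, and the remaining one was not well above background on any array. In polysome RNA of the same mice the brightest probe differed by -1.23. With brightness as a term the whole-muscle difference was -0.46, on slide 1 alone -0.68 and on slide 2 alone -1.05, and in these 3 fits the unadjusted limma p was above 0.05.

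Genes that lie beside Eif6 on chromosome 2 were described as a group, since a lesion can touch its neighbours. Within 1 Mb of the Eif6 probe the array holds 43 other gene symbols, of which Epb4.1l1 and Epb41l1 are spellings of 1 gene, and 29 were tested. Their median difference was 0.02, and 22 of the 43 were higher in Het. The nearest were Mmp24 and Fam83c, not well above background on any array, and Uqcc1, an assembly factor of respiratory complex III, which differed by -0.25. Of the 29 tested, 4 had an unadjusted limma p under 0.05, namely Cpne1 (-0.71), Raly (-0.63), Pigu (0.52) and Ahcy (-1.18), where 8.62% of all tested probes had such a p. Ahcy, which hydrolyses S-adenosylhomocysteine, was the one past the threshold used for counts, which 2.76% of named genes passed. Its probe was well above background on 1 of 3 Het arrays and passed the filter through WT alone, so this call is given as a description.

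Across all tested probes few differences exceeded the spread between mice by a wide margin. At the threshold that the study's methods give for the polysome arrays (for muscle arrays they name SAM, not run here), an absolute log2 difference above 1 and an unadjusted limma p under 0.05, 706 probes were called, 4% of those tested, and these carried 685 gene or locus names, 190 higher and 497 lower in Het, with 2 counted in both directions. Of all tested probes, 1.09% were called higher and 2.91% lower. After Benjamini-Hochberg adjustment 3 probes (0.017%) had a limma p under 0.05, while 1520 (8.62%) had an unadjusted p under 0.05. Values of the 2 genotypes did not overlap for 13.5% of probes. With brightness as a term, limma called 196 names, 24 higher and 173 lower, and 0 probes after adjustment, with 278 at an unadjusted p under 0.05. Leaving out WT array 1, the brightest array, left 291 names, 39 higher and 252 lower.

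The direction of these calls went with the signal of the probes. All 6 arrays measured 12286 of the tested probes above background, 5325 passed through the WT arrays alone and 30 through the Het arrays alone. A probe that passes through the WT arrays alone tends by that filter to be higher in WT, so the 443 calls lower and 23 calls higher in Het among the 5325 are given only as a description. Among the 12286 probes well above background on every array, 147 were called higher in Het (1.2%) and 71 lower (0.578%), the opposite balance. The median difference of that class was 0.03. When probes were split into 5 equal bins of mean signal, the median of the lowest bin was -0.37, with 356 probes called lower and 56 higher, and in the other bins it lay between -0.03 and 0.03. In the fit with brightness that of the lowest bin was -0.13.

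**Figure D2:**
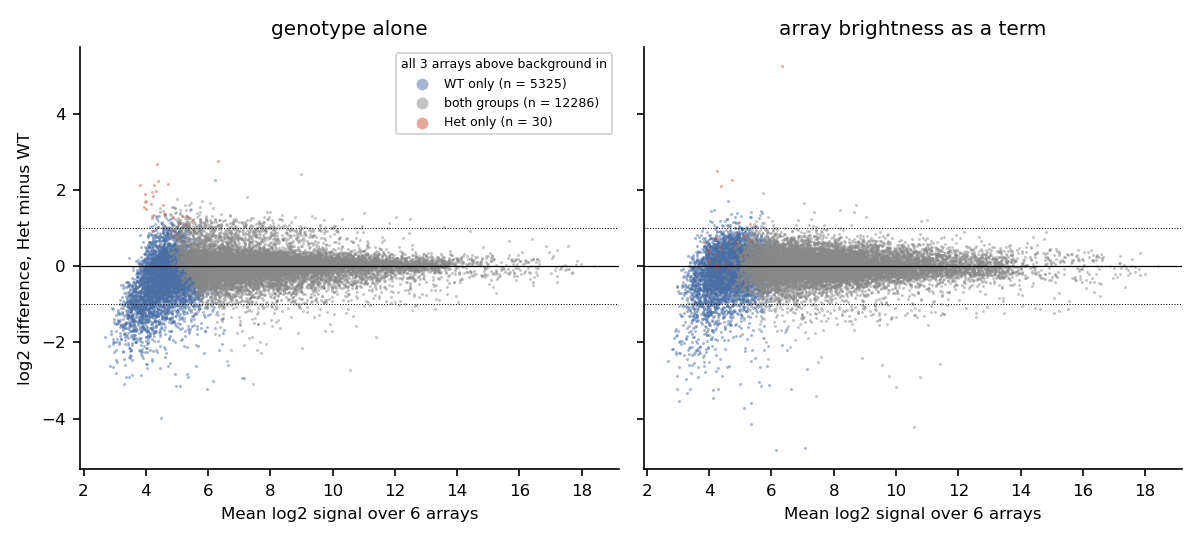
Log2 difference between Het and WT (vertical axis) against mean log2 signal over the 6 arrays (horizontal axis) for the 17641 tested probes, with genotype alone (left) and with array brightness as a second term (right). Colours give the group in which a probe was well above background on all 3 arrays, dotted lines mark a difference of 1, and the probes that passed through WT alone bend below 0 at low signal.

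Among named genes, each represented by its brightest probe, 287 of 10392 were called (2.76%), 63 higher (0.606%) and 224 lower (2.16%) in Het. Of the called genes, 48 were well above background on all 6 arrays with no overlap between genotypes, 28 higher and 20 lower. The genes described next were taken from these by size of difference, from the gene lists, and from the calls that held in all of 4 other fits.

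Sdc4, called higher in Het, encodes syndecan-4, a heparan sulfate proteoglycan of the cell surface that acts at focal adhesions. Its probe (A_52_P93467, chr2:164251211-164251270, mm9) gave log2 signals of 3.91, 3.52 and 3.48 in WT and 5.54, 5.97 and 5.93 in Het, and it was well above background on 2 of 3 WT arrays. The genotypes did not overlap. The probe passed the filter through the Het arrays alone, so its difference and p are given as a description. The difference was 2.18 (SE 0.21, limma adjusted p = 0.077, exact permutation p = 0.1). It stayed between 2.10 and 2.31 when any single mouse was left out, was 2.28 with brightness as a term (unadjusted limma p under 0.05) and was 1.71 in polysome RNA.

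Ext2, which encodes a subunit of the enzyme that builds heparan sulfate chains, had log2 signals of 4.64, 5.34 and 4.82 in WT and 5.996, 7.004 and 6.993 in Het. Its difference was 1.73 (SE 0.34), against 1.01 with brightness as a term (unadjusted limma p above 0.05) and -0.23 in polysomes. Pprc1, a coactivator of the PGC-1 family, gave 3.61, 4.33 and 4.44 in WT and 5.30, 6.71 and 5.71 in Het. Every Het value of both genes exceeded every WT value. The Pprc1 difference was 1.78 (SE 0.41), and 0.60 with brightness as a term. Smndc1, a splicing factor, was 4.79, 5.23 and 4.85 in WT and 7.18, 6.09 and 6.27 in Het, a difference of 1.56 that was 1.93 with brightness as a term (unadjusted limma p under 0.05).

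The other genes among the 12 highest were Redrum (1.63), 1810010D01Rik (1.61), Cep112os2 (1.44), Zcchc13 (1.38), Erich1 (1.36), Pm20d1 (1.35), Acp4 (1.32), Klk9 (1.28) and E030019B06Rik (1.26). All 9 were well above background on all 6 arrays and had no overlap between genotypes, and none had an unadjusted limma p under 0.05 with brightness as a term, where Redrum, a non-coding RNA, was at -0.05. In polysome RNA, where the Het arrays were on average the brighter ones, these 9 differed in the other direction, by -1.11 to -0.58. WT array 1, the brightest array, held the lowest of the 6 values for 8 of the 9, the exception being Erich1. Without it Acp4 differed by 0.85, Cep112os2 by 0.91 and Pm20d1 by 0.76.

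Pfn1 had the largest difference among called genes lower in Het that were above background on all 6 arrays without overlap. It encodes profilin-1, which binds actin monomers, and its brightest probe gave log2 signals of 8.88, 7.21 and 7.44 in WT and 4.19, 5.65 and 6.22 in Het. The lowest WT value was above the highest Het value. The difference was -2.49 (SE 0.63), and -2.12 with brightness as a term (unadjusted limma p above 0.05). Mustn1, a small nuclear protein of muscle and skeleton, was 10.38, 7.47 and 8.84 in WT and 6.08, 7.36 and 7.10 in Het. WT array 2 lay close to the Het values, and the difference of -2.05 was -1.31 without WT array 1 and -1.22 with brightness as a term.

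Atp2a1 encodes SERCA1, the calcium pump of the sarcoplasmic reticulum in fast fibres. Its log2 signal was 14.19, 14.04 and 13.34 in WT and 12.32, 12.64 and 13.28 in Het, where Het 3 nearly reached WT 3. The whole-muscle difference was -1.11 (SE 0.33, limma adjusted p = 0.494) and that in polysome RNA was 1.53. Mef2c, a myogenic transcription factor, differed by -1.09, with 7.44, 7.19 and 7.37 in WT and 5.94, 5.67 and 7.12 in Het. Further muscle genes called lower were Xirp1 (-1.53) and Hspb7 (-1.48), an actin-binding protein and a small heat shock protein of striated muscle, and Fkbp1a (-1.14), a subunit of the ryanodine receptor complex. WT array 1 held the highest value of all 3. Without it Xirp1 differed by -0.74 and Hspb7 by -0.86, with brightness as a term they differed by -0.09 and -0.21, and other Fkbp1a probes differed by 0.02 and -0.48. Atp2a1 differed by -0.83, Mef2c by -0.97 and Fkbp1a by -1.23 with brightness as a term. The rest of the 12 lowest were Iqsec3 (-1.99), 4931402H11Rik (-1.85), Rnh1 (-1.29), Stk25 (-1.18) and Cap1 (-1.10), which lay between -2.57 and -0.48 in that fit. Without Het 1 Stk25 differed by -0.78.

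**Figure D3:**
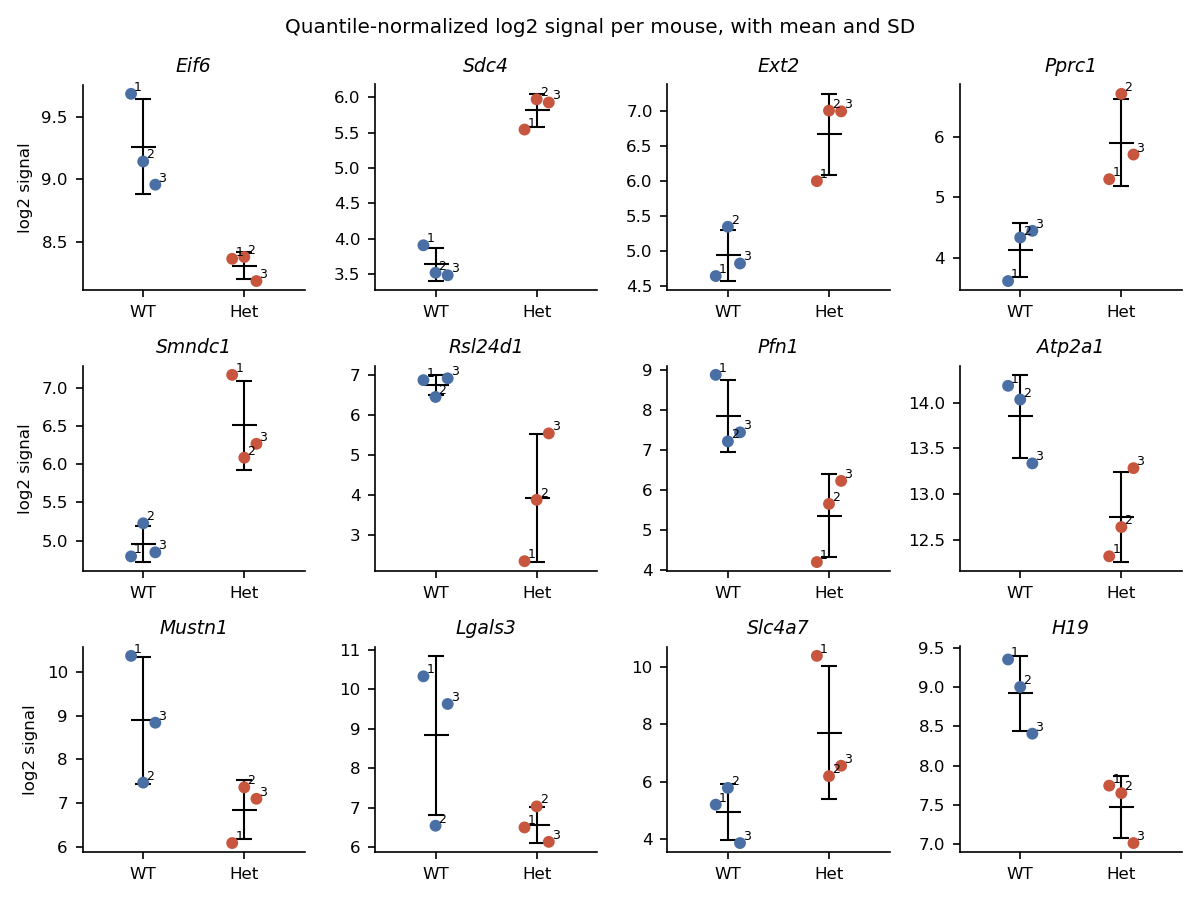
Quantile-normalized log2 signal of 12 genes in each mouse, with the mean and SD of each genotype in black and the mouse number beside each point. Each panel has its own vertical axis, and Sdc4 lies at 3.48 to 3.91 in WT and 5.54 to 5.97 in Het, whereas Mustn1, Lgals3 and Slc4a7 each have 1 or 2 mice far from the rest.

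Some genes were measured in 1 genotype alone, so that only a bound can be given for the fold, with the dim genotype held at the detection level of its arrays (the dimmest probe still called above background) or at its own signal where that was higher. Named genes well above background on all 3 WT arrays and on no Het array gave a bound above 1 in 89 cases, against 1 in the other direction. The largest WT bounds were those of S100a9, a neutrophil calcium-binding protein (at least 4.06-fold higher in WT, limma adjusted p = 0.563), Lyz2, lysozyme of macrophages (at least 2.93-fold, adjusted p = 0.494), and R3hdm4 (at least 2.56-fold, adjusted p = 0.464). Several of these rest on WT array 1: without it, a check added after seeing the data, the bound was 1.47 for S100a9 and 1.79 for Lyz2, and without WT array 2 it was 12.4 and 5.60. Atf3 (at least 2.40-fold, limma adjusted p = 0.580), Sfrp2 (at least 2.29-fold, limma adjusted p = 0.593) and Snd1 (at least 2.04-fold, limma adjusted p = 0.473) followed, of which Atf3 and Sfrp2 were not called. The difference of Atf3 turned to 0.21 with brightness as a term, and those of the other 5 lay between -1.34 and -0.89. Without WT array 1 no bound above 1 was left for Atf3 and that of Sfrp2 was 1.49, and without WT array 2 they were 5.004 and 4.69. Olig2 was the gene with a bound in the other direction, at least 2.71-fold higher in Het (limma adjusted p = 0.473). It differed by 1.51, by 0.37 with brightness as a term and by -0.60 in polysomes. The 3 probes with a limma adjusted p under 0.05 were of the same kind, well above background on all 3 WT arrays and on no Het array, so that they passed the filter through WT alone and their Het values, near the floor of the arrays, hardly varied. Their adjusted p is given as a description. They were a probe in an unnamed locus at chr1:192484806-192484865 (mm9, at least 1.30-fold higher in WT, limma adjusted p = 0.017), one for Tnfrsf21 (limma adjusted p = 0.032) and one for the non-coding RNA B230398E01Rik (limma adjusted p = 0.022), and for the last 2 no bound above 1 could be given.

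Calls that held in each of 4 other fits (75th percentile scaling, a normexp background correction, slide as a term and brightness as a term) were 13 probes, 0.0737% of those tested, 12 lower and 1 higher in Het. They lay in 5 named genes, 1 probe with no name and 7 unnamed loci, for which the array design gives a genomic interval and no symbol. Of the 13, 6 were above background on all arrays of both genotypes, and the other 7 passed through 1 genotype alone (6 through WT, 1 through Het), so that their calls are given as a description. The 60-base probes of those 7 loci are shown because they carry these differences, in lower case and 5′ to 3′, with the probe position in mm9.

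chr4:131909533-131909592, plus strand: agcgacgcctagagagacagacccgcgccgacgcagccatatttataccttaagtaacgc
chr3:87576109-87576168, plus strand: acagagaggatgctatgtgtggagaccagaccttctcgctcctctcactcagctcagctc
chr6:83406382-83406441, plus strand: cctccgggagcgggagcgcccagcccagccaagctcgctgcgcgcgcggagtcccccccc
chr7:50512528-50512587, minus strand: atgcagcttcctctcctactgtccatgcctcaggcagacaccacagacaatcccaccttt
chr16:8738913-8738972, minus strand: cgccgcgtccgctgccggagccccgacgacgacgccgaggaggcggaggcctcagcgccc
chr11:95573953-95574012, plus strand: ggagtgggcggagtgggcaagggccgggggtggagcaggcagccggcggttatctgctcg
chr5:34713032-34713091, plus strand: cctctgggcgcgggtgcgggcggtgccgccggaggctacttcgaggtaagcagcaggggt

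The probes on chromosomes 5, 6, 11 and 16 hold 73.3% to 81.7% G and C, and the other 3 hold 53.3% to 55%. Over the 13 probes the median G and C content was 55%, against 43.3% over all tested probes, and 30.8% of the 13 had 60% or more, against 2.49% of all tested probes. The locus on chromosome 4 gave log2 signals of 9.21, 8.47 and 9.27 in WT and 4.87, 5.57 and 7.22 in Het, a difference of -3.09. The locus on chromosome 6 gave 9.27, 7.78 and 8.81 in WT and 4.90, 5.32 and 6.82 in Het, and was well above background on 2 of 3 Het arrays. The difference on chromosome 3 was -3.02, or -1.69 without Het 1, and that on chromosome 7 was -2.93, or -1.62 without Het 1. For the 7 loci the fit with brightness gave -4.82 to -1.68. At the loci on chromosomes 4 and 6, Het 1 was lowest and Het 3 highest, and no Het value reached a WT value. The same order of the Het mice was found in 11 of the 13 probes, in 42 of the 71 probes called lower among those well above background on all arrays, and in 1689 of all 12286 probes of that class. What sets this order was not tested.

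The named genes of this group were Rsl24d1, Prcc, Schip1, Nrap and Slc4a7. Rsl24d1 is a factor that joins the maturing large ribosomal subunit in the nucleus, the particle to which eIF6 also binds. Its log2 signal was 6.87, 6.45 and 6.92 in WT and 2.34, 3.88 and 5.54 in Het, a difference of -2.83 (SE 0.73, limma adjusted p = 0.473), where 1 of 3 Het arrays was well above background. A second Rsl24d1 probe, which overlaps the first and is no separate measurement, differed by -2.11. One elsewhere in the gene was not called, at -1.09 and at -0.03 with brightness as a term, with no Het array well above background, and in polysome RNA the first was higher in Het, by 1.19. Nrap, an actin-binding protein of muscle attachment sites, differed by -1.70 in one probe and by 0.04 in its brighter probe. Prcc differed by -2.61 and Schip1 by -2.59, each with 1 of 3 Het arrays well above background.

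Slc4a7, a sodium bicarbonate cotransporter, was the gene of this group that was higher in Het. Its probe gave 5.19, 5.78 and 3.86 in WT and 10.38, 6.19 and 6.55 in Het. Het 1 was far above the other mice, and without it the difference was the lowest of the leave-one-out values, 1.43, against 2.76 with all mice and 5.26 with brightness as a term. A brighter Slc4a7 probe differed by 0.24.

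Over all 2192 tested probes of unnamed loci, 95 were called higher and 76 lower in Het, with a median difference of 0.06. Among the 1189 of them that were well above background on all 6 arrays, 66 were called higher and 13 lower, with a median difference of 0.22. Among the 9250 probes of named genes in the same class, 65 were called higher and 40 lower, with a median of 0.03. These medians were 0.09 and -0.01 with brightness as a term.

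H19 was singled out after its values had been seen, because 6 probes in different parts of this imprinted non-coding RNA of growing muscle were tested and all were lower in Het. The probe at chr7:149762173-149762232 (minus strand, mm9) is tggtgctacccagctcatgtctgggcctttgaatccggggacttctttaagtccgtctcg, and it gave log2 signals of 9.36, 9.01 and 8.41 in WT and 7.74, 7.65 and 7.01 in Het. No Het value reached a WT value. The 6 differences lay between -1.46, that of the probe shown, and -0.59, that of the brightest probe, and 4 of the 6 probes were called. The genotypes did not overlap for 4 of the 6 probes, but did for the brightest. None had a limma adjusted p under 0.05, and with brightness as a term the differences were between -0.81 and -0.01. In polysome RNA the same probes were higher in Het, by 0.18 to 0.69.

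**Figure D4:**
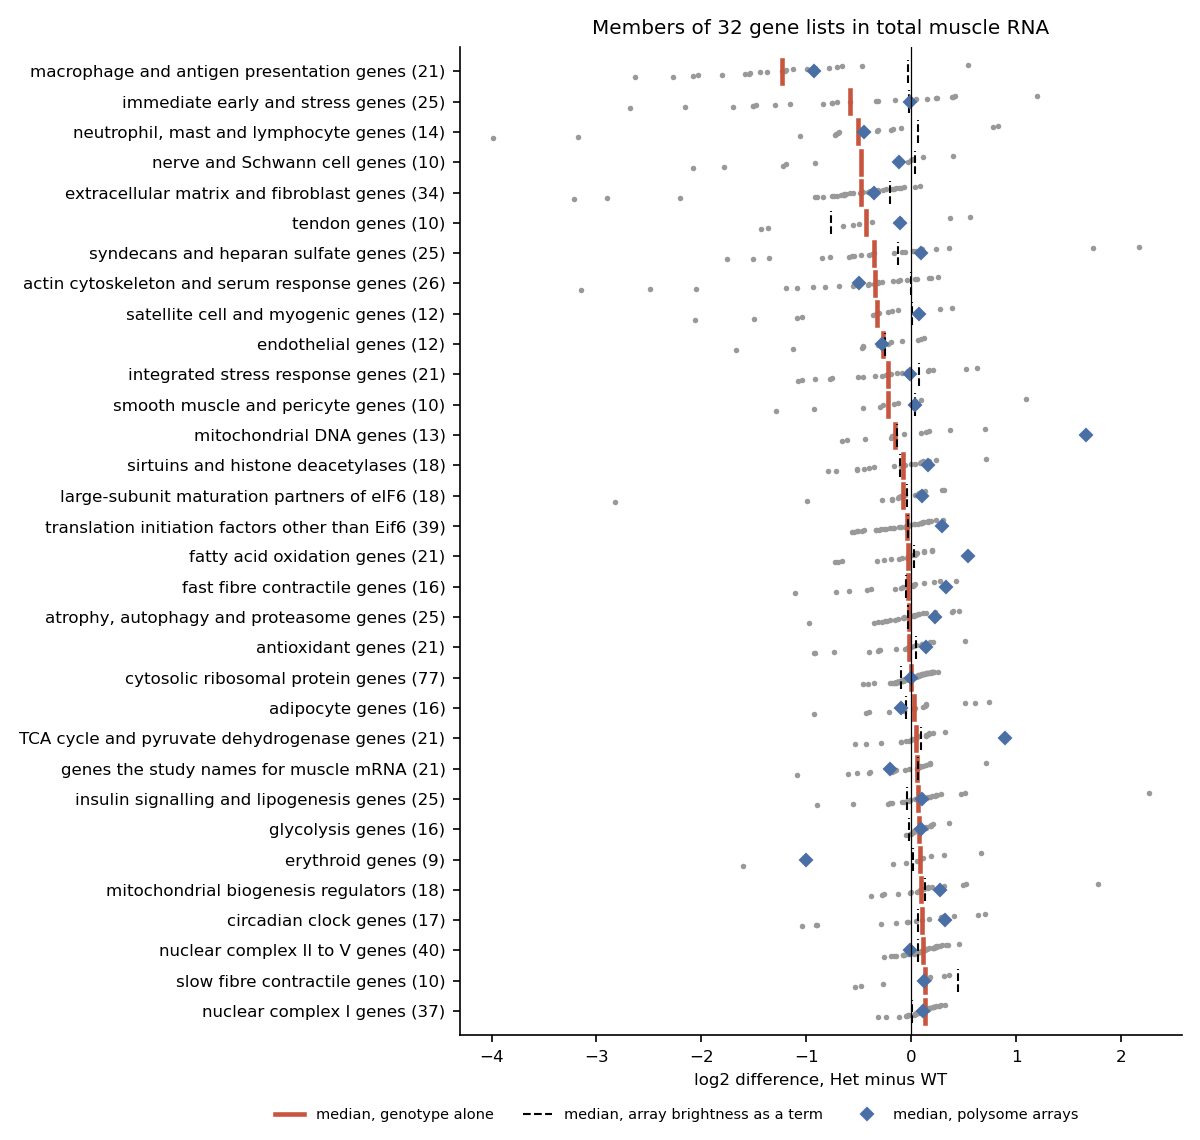
Log2 difference between Het and WT of each member (grey points, 1 probe per gene) of the gene lists, with the number of members in brackets, the median in red, the median with array brightness as a term as a dashed line and the median of the polysome arrays as a blue diamond. Macrophage genes have the lowest median, -1.23, which lies at -0.03 once brightness is a term.

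Gene lists were described by the differences of all members on the array, whether or not they passed the filter, beside the 22117 named genes on the array, whose median difference was 0.02. A member was called or not by its brightest probe alone. The medians were set against those of 12 other fits, chosen after seeing the data (each mouse left out in turn, 75th percentile scaling, normexp, the authors' table, brightness as a term and each slide alone). Of 33 lists, 10 had the same sign in all 12, namely the matrix, tendon, endothelial, macrophage, actin, immediate early and syndecan lists (below 0) and the complex I, mitochondrial biogenesis and clock lists (above 0), at times close to 0. For the other 23 the sign of the median turned in at least 1 fit. The lists of cell types came first. Fast fibre contractile genes, the markers of this muscle, were well above background on all 6 arrays in 16 of 16 cases. Their median difference was -0.03 and 8 of 16 were higher in Het, with Atp2a1 the one called. In the authors' table that median was -0.37 with 2 of 16 higher, and with 75th percentile scaling 0.35 with 12 of 16 higher. Tnnc2 and Tnni2, the brightest of the list, each differed by 0.02. Slow fibre genes had a median of 0.13 with none of 10 called, and their mean signal was 9.95, 10.45 and 9.09 in WT and 9.85, 9.78 and 9.90 in Het, so that WT mice varied more among themselves than the genotypes differed. The median was -0.38 without WT 3, 0.56 without WT 2, 0.82 on slide 1 alone, -0.44 on slide 2 alone and 0.45 with brightness as a term.

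Macrophage and antigen presentation genes had the lowest median of all lists, -1.23, with 1 of 21 members higher in Het. Those called, all lower in Het, were Lyz2, Lgals3 (-2.27), a galectin of activated macrophages, and H2-Aa (-1.13), an MHC class II chain, 3 of 21, where 2.16% of named genes were called lower. Lyz2 and H2-Aa passed the filter through WT alone, so nothing is read from this count. Lgals3, whose genotypes overlapped, differed by -3.42 without WT 2. The 3 differed by -1.32, -1.29 and -0.75 with brightness as a term. The mean log2 signal of the list was 8.12, 5.37 and 7.11 in WT and 5.68, 5.57 and 5.49 in Het. WT 1 and WT 3 were high, whereas WT 2 was below all Het mice, so the genotypes overlapped (exact permutation p = 0.4). WT 1 held the highest value for 20 of 21 members, against 20.1% of all named genes, and WT 2 lay below the highest Het value for 19 of 21. The median was -0.54 without WT 1, -2.04 without WT 2 and -0.03 with brightness as a term, and in polysome RNA it was -0.93. H2-Ab1 and Csf1r, the brightest members, differed by -0.66 and -0.996. Cd163, a marker of resident macrophages, was not well above background on any array. Fewer cells of a type and less RNA per cell cannot be told apart in whole muscle. What part array brightness had in the difference was not tested beyond these fits.

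Extracellular matrix and fibroblast genes were lower in Het for 32 of 34 members, with a median of -0.47. One was called, Lox, which crosslinks collagen and was at least 1.27-fold higher in WT (limma adjusted p = 0.473), with no Het array well above background. No bound above 1 was left for Lox without WT 1 or without Het 1, it was 2.06 without WT 2, and the difference of -2.90 was -1.06 with brightness as a term. The brightest members, Sparc and Col1a2, differed by -0.27 and -0.33. The mean signal of the list was 9.21, 8.34 and 8.92 in WT and 8.39, 8.42 and 7.74 in Het, where WT 2 lay among the Het mice and Het 3 lowest. The median was -0.31 without Het 3, -0.34 without WT 1, -0.20 with brightness as a term and -0.35 in polysomes. The list had 1 of 34 members called, where 2.76% of named genes were.

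Genes of the actin cytoskeleton and of serum response had a median of -0.34, with 5 of 26 higher in Het. Those called, all lower, were 4 of 26, where 2.16% of named genes were called lower. They were Pfn1 and Mustn1 above, Ankrd1 (-3.15), a stretch-responsive repeat protein, and Itgb1 (-1.08), the integrin beta-1 chain. Ankrd1 was well above background on 1 of 3 Het arrays and Itgb1 on 2 of 3. Both passed the filter through WT alone, so nothing is read from this count. The genotypes overlapped for Ankrd1, which differed by -1.76 without WT 1 and -0.43 with brightness as a term. The mean signal of the list was 10.50, 9.59 and 9.80 in WT and 9.39, 9.55 and 9.15 in Het. All Het mice were below all WT mice, though Het 2 came close to WT 2 (exact permutation p = 0.1), and WT 1 held the highest value for 21 of 26 members. The median was -0.15 without WT 1 and -0.0045 with brightness as a term. Actb and Actg1, the cytoplasmic actins and the brightest members, differed by -0.04 and -0.28. The other 4 Actg1 probes, above background on all 6 arrays too, lay between -1.75 (called) and -0.33.

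**Figure D5:**
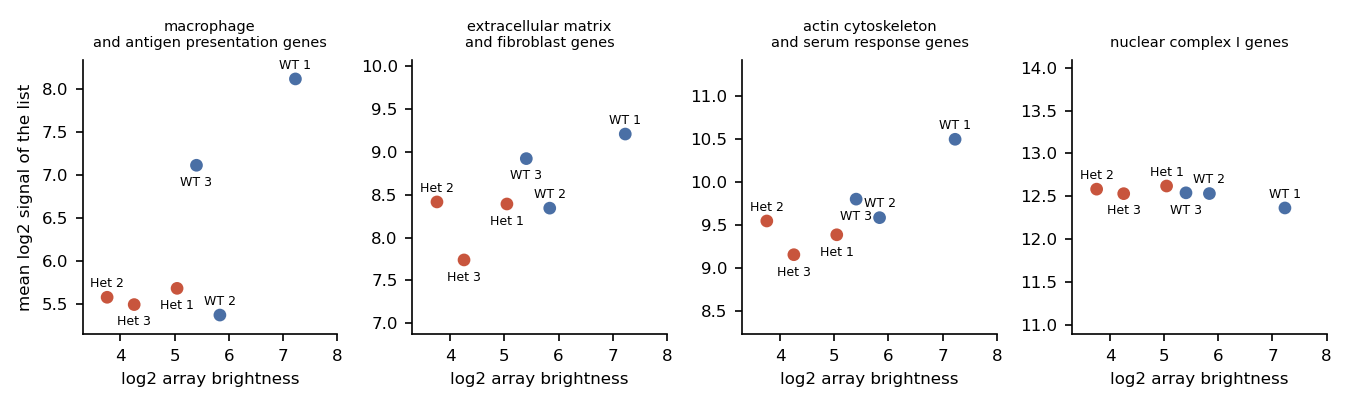
Mean log2 signal of 4 gene lists (vertical axes, all spanning the same number of log2 units) against log2 array brightness (horizontal axes) for each of the 6 mice, WT in blue and Het in red. WT 1, the brightest array, has the highest mean of macrophage, matrix and actin genes, and complex I genes lie between 12.36 and 12.62 on all arrays.

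Immediate early and stress genes had a median of -0.59 with 8 of 25 higher in Het, -0.21 without WT 1 and -0.02 with brightness as a term. Fos, at least 1.31-fold higher in WT (limma adjusted p = 0.520), Egr1 (-1.69) and Hspb7 were called lower. These were 3 of 25, where 2.16% of named genes were called lower. Fos and Egr1 passed the filter through WT alone, so nothing is read from this count. Fos differed by -1.72 and Egr1 by -3.12 with brightness as a term, and Egr1, with overlapping genotypes, by -1.05 without WT 2. Fosb was called higher, 1 of 25 where 0.606% of named genes were, with 4.32, 5.59 and 5.52 in WT and 5.80, 6.49 and 6.74 in Het. Its difference of 1.20 was 0.79 without WT 1, -0.03 with brightness as a term and -1.01 in polysomes. Tendon genes had a median of -0.43, with 2 of 10 higher in Het. That median was -0.23 without Het 3, -0.16 with 75th percentile scaling and -0.76 with brightness as a term. Cilp (-1.36, or -0.81 in that fit) was called. Chad and Thbs4, the brightest members, differed by 0.56 and -0.38, with overlapping genotypes. Fmod, the 1 member of 10 without overlap, gave 8.08, 8.46 and 8.22 in WT and 7.70, 7.87 and 7.55 in Het. The genotypes overlapped for Cilp. The Fmod difference of -0.55 did not pass the threshold. Endothelial genes had a median of -0.27, which was -0.25 with brightness as a term, and all 3 Het means (7.15 to 7.26) were below all WT means (7.498 to 7.70, exact permutation p = 0.1). Of the 12 members 3 were higher in Het, and Kdr and Egfl7, the brightest, differed by -0.19 and -0.32. Tie1 (-1.13), a receptor of endothelium, was called, and it differed by -0.67 without Het 3 and -0.37 with brightness as a term. It was well above background on 1 of 3 Het arrays and passed the filter through WT alone, so its call is given as a description.

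Markers of other cells gave fewer members above background. Neutrophil, mast cell and lymphocyte genes had a median of -0.51 with S100a9 the one called, against -0.25 without WT 1, -0.11 with normexp correction and -0.18 over the 4 members above background on all 6 arrays. Of those 4, Camp, an antimicrobial peptide of neutrophils, differed by 0.83 and was not called. Nerve and Schwann cell genes had -0.48, and Ncam1 (-1.79), a cell adhesion molecule well above background on 1 of 3 Het arrays, was among those called. Its genotypes overlapped, and it differed by -1.07 without Het 2 and -0.07 with brightness as a term. The median of the nerve list was -0.98 without Het 1 and 0.00031 over its 3 members above background on all 6 arrays. Satellite cell and myogenic genes had -0.32, with Mef2c called. Smooth muscle genes had -0.22 (-0.07 without WT 1 or without Het 3, 0.02 on slide 2 alone), with Myh11 called, at least 1.35-fold higher in WT (limma adjusted p = 0.464). With brightness as a term these 4 medians lay between 0.01 and 0.07.

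Energy metabolism genes, by contrast, differed little. Nuclear complex I genes, which encode subunits of NADH dehydrogenase, were higher in Het for 30 of 37 members, with a median of 0.14, and 0 were called by limma, none even at an unadjusted p under 0.05. Ndufa13 and Ndufb9, the brightest, differed by 0.11 and 0.27. Genes of complexes II to V were higher for 31 of 40, with a median of 0.11 and 0 called by limma, none at an unadjusted p under 0.05. With brightness as a term the medians of the 2 lists were 0.01 and 0.07. The 13 transcripts of mitochondrial DNA had a median of -0.15 in total RNA, with 5 higher in Het, against 1.67 in polysome RNA. Their whole-muscle median was -0.44 with 2 of 13 higher in the authors' table and 0.20 with 8 of 13 higher under 75th percentile scaling. TCA cycle and pyruvate dehydrogenase genes had a median of 0.05 against 0.90 in polysomes, and fatty acid oxidation genes had -0.03 against 0.54. Glycolysis genes were higher for 13 of 16, with a median of 0.08 and none called. In the authors' table their median was -0.08 with 7 of 16 higher, that of complexes II to V -0.0048 with 19 of 40 higher and that of complex I 0.08 with 22 of 37 higher. Without WT 1 the 3 medians were 0.02, 0.06 and 0.05. With 75th percentile scaling, which moved the median of all named genes from 0.02 to 0.32, the medians of complex I, complexes II to V and glycolysis genes were 0.29, 0.30 and 0.35. Complex I genes thus lay above all named genes in one scaling and just below them in the other. All named genes include those not tested. Over the tested probes alone the median was -0.03 in the first scaling and 0.05 in the other, below that of complex I genes in both.

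Genes of the translation machinery were described next. Cytosolic ribosomal protein genes had a median of 0.00, with 39 of 77 higher in Het and 0 called by limma, none at an unadjusted p under 0.05. Those higher were 20 of 77 with brightness as a term (median -0.10), 25 in the authors' table and 71 with 75th percentile scaling. Initiation factors other than Eif6 had a median of -0.04, with 15 of 39 higher and none called, and 2 at an unadjusted limma p under 0.05. A dimmer Eif4e probe, above background on all 6 arrays, was called higher in Het at 1.14. Among partners of eIF6 in large-subunit maturation, Rsl24d1 was the one called, and the others lay between -0.99 (Rrp12) and 0.31 (Efl1), with Npm1 at -0.11 and Zfp622 at 0.09. Sirtuins and histone deacetylases had a median of -0.08 with none of 18 called.

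Syndecan and heparan sulfate genes went in both directions. Sdc4 and Ext2 were called higher and Hs6st1, a sulfotransferase of the same chains (-1.75, 1 of 3 Het arrays well above background), was called lower. These were 2 of 25 higher and 1 of 25 lower, where 0.606% and 2.16% of named genes were called. Sdc4 passed the filter through Het alone and Hs6st1 through WT alone, so nothing is read from these counts. The genotypes overlapped for Hs6st1, which differed by -0.99 without Het 3 and -0.26 with brightness as a term. The other 22 members lay between -1.51 and 0.36, and the median of all 25 was -0.35, or -0.20 without WT 1 and -0.07 with normexp correction. Over the 14 members above background on all 6 arrays the median was -0.0067, with 7 of 14 higher in Het. Gpc1, the brightest, differed by 0.05. Sdc1 (-0.85, 1 of 3 Het arrays well above background) and Sdc2 (-0.48) had no overlap between genotypes and were not called. Genotypes did not overlap for 5 of the 25 members, nor for 2440 of the 22117 named genes on the array. Among regulators of mitochondrial biogenesis Pprc1 was the one called, with a median of 0.10 over 18 genes (0.0056 without Het 1), Tfam at 0.20 and Esrra at 0.13.

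Of 21 genes that the study and its supplement name for muscle mRNA, 11 were higher in Het and the median was 0.06. The sources do not say whether they were chosen on these mice, so the list is no independent evidence of direction. Itgb1 was the one called, with 7.15, 6.07 and 6.28 in WT and 5.53, 5.16 and 5.56 in Het. The Het mice were below the WT mice, with 2 of 3 Het arrays well above background, and the difference of -1.08 was -0.27 with brightness as a term. Mapk3 (-0.60, or 0.14 with brightness as a term) and Fgfr1 (-0.15) had no overlap either and were not called, and another Fgfr1 probe, on no Het array well above background, was at least 1.95-fold higher in WT (limma adjusted p = 0.328). Sirt6 (0.72), Sirt2 (-0.41), Thbs3 (-0.39), Sod2 (0.18), Ndufs4 (0.18), Pdhb (0.08), Atp5l (0.08), Tceb2 (0.06) and Wasf2 (0.06) overlapped between genotypes. The other 9 lay between -0.52 (Hdac9) and 0.17 (Hdac6), overlapping as well.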

How the data were processed

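Agilent 1-colour arrays with 60-base probes were used. As deposited, the scanner files hold spot intensities of each array, which Agilent Feature Extraction had background-subtracted and detrended, with surrogate values for spots near background, and which were not scaled between arrays. The authors' table holds log2 values, which their methods describe as quantile normalized, with background handling not stated there. Its columns ranked the median spot signal of the 6 arrays exactly (Spearman 1).

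Control spots and outlier spots were left out, 30 probes with a missing value were dropped, and spots of 1 probe were averaged. Log2 processed signals of the 6 whole-muscle arrays were quantile normalized and fitted with limma 3.58.1 in R 4.3.3 on genotype, unpaired, with Benjamini-Hochberg adjustment over 17641 probes. Same-numbered WT and Het mice did not deviate together (r = 0.22, -0.21 and -0.08), so numbers were not used as pairs. Polysome arrays were normalized and fitted by themselves. The SAM procedure that the study's methods name for muscle arrays was not run here, and the threshold is the one they give for polysome arrays. On simulated data the fit called 89% of log2 changes of 1.5 and 100% of those of 3. The simulated arrays held Gaussian noise alone, with no brightness tied to genotype, no detection level and no outlying array. These shares therefore do not tell how well the fit did on the real arrays. The number of arrays limits the precision.

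Of the probes, 30921 carry a gene name, 28026 were matched to RefSeq by accession and 3713 by name, and 23942 were not matched. A gene was represented by its probe of highest mean signal. The genes named were those with an adjusted p under 0.05, the 12 highest and 12 lowest differences among called genes above background on all 6 arrays without overlap, the 6 largest bounds in each direction, the genes the study names, called and brightest members of each list, calls that held in 4 other fits, and the nearest neighbours of Eif6. Fmod, Sdc1, Sdc2, Cd163 and some other genes were named outside these rules. Members and lists were chosen with earlier results of these data known. In all, 22 other settings were tried. Values of array brightness at the median and without each mouse, and bounds without each mouse, were added after seeing the data. A result for 1 gene is not reported here.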

Additional observations from a re-analysis of the deposited data

How the results depend on the processing

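Names called, with those higher and lower in Het, were 685, 190 and 497 in the fit reported. They were 62, 15 and 47 with normexp, 75, 15 and 60 in the authors' table, 1531, 600 and 944 with no filter, 268, 197 and 72 among probes above background on all 6 arrays, 137, 82 and 56 in the brighter 0.5 of probes, 196, 24 and 173 with brightness as a term, and 332, 59 and 273 without WT 1 and Het 2. Names higher in Het numbered 344 with 75th percentile scaling, 87 with slide as a term and 92 on slide 2 alone, where totals stayed within 1.5 times. Leaving out each mouse gave 291 to 1297 names, 39 to 610 higher and 252 to 788 lower. The lowest were without WT 1, and the highest without WT 2, except those lower in Het, highest at 788 without Het 1. Probes with a limma adjusted p under 0.05, 3 as reported, were 1 when 12 arrays were normalized together, 3 with outlier spots kept, 0 to 27 when 1 mouse was left out and 0 in every other setting tried. With the replicate block, 892 names were called, 250 higher and 645 lower, and 0 after adjustment, and the numbers pair no mice here.

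Eif6 kept its direction in all 22 settings, at -0.68 on slide 1 alone, -1.05 on slide 2 alone and -0.46 with brightness as a term, each with an unadjusted limma p above 0.05. Of 65 named values with an unadjusted p under 0.05, Fosb (-0.031) and Redrum (-0.047) turned direction with brightness as a term, as did 42 of the other 88. In that fit 47 of the named values missed the threshold or p they had passed. Slides alone lost 37 and 36. Brightness itself differed by -1.33 at the median, and by -2.18 to -1.27 when 1 mouse was left out. The cause of these shifts was not tested. Genotype and brightness are separated by 6 arrays alone, and below the detection level of the Het arrays only bounds can be read.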

Other observations

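Genes of other functions mostly lay near the median of all named genes, 0.02. Circadian clock genes had a median of 0.10 with none of 17 called. Per1, a repressor of the clock, gave 8.13, 8.32 and 8.55 in WT and 8.95, 8.94 and 9.04 in Het, a difference of 0.64, and Nr1d1, which represses Bmal1, differed by -0.91. Neither overlapped between genotypes, and both were named after their values had been seen. With brightness as a term they differed by 0.38 and 0.04. Atrophy, autophagy and proteasome genes (median -0.02), antioxidant genes (-0.02), insulin signalling and lipogenesis genes (0.06) and adipocyte genes (0.03) had no member called by limma, with 1, 2, 0 and 0 members at an unadjusted p under 0.05. The adipocyte median turned to -0.28 without WT 2. Slc2a4, the insulin-responsive glucose transporter, differed by 0.06. Integrated stress response genes had a median of -0.22, with Asns (-1.04, well above background on 1 of 3 Het arrays), an asparagine synthetase, called. That median was -0.03 without WT 1 and turned to 0.08, with 14 of 21 higher, when brightness was a term, where Asns differed by -0.43. Erythroid genes had a median of 0.08, with Hbb-b1 (-1.598), a beta globin, called and Hba-a1, an alpha globin, at 0.11. Hbb-b1 differed by -0.31 in the fit with brightness.

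Several probes of 1 gene did not always give the same difference. Among probes above background on all 6 arrays, 30 called probes of 26 genes had another such probe for the same gene, and for 6 of the 30 another was called in the same direction. The median size of the called differences was 1.16, and that of the other probes, signed in the called direction, was 0.25. The tested probes of Spint2, an inhibitor of serine proteases, differed by -1.54 and -1.76, with 0 and 2 Het arrays well above background, and both probes of Paqr6, a membrane receptor for progestins, by 1.01 and 1.05, where the genotypes overlapped for the first. With brightness as a term the Spint2 probes differed by -0.96 and -2.20 and the Paqr6 probes by 0.45 and 0.81, and in polysomes the Paqr6 probes differed by -0.58 and -0.35. These genes were also named after their values had been seen.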
